A study of Mus musculus with 9 samples.

Results

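The 9 genes described here encode the transcription factor NRF2 and the proteins known to control it or bind DNA beside it. They are Nfe2l2, which encodes NRF2 itself, its relative Nfe2l1, the inhibitors Keap1 and Cul3, the repressor Bach1, the small MAF partners Maff, Mafg and Mafk, and Osgin1. They were taken by symbol from the 55416 genes of the deposited count tables, but they were chosen with earlier results of these data known. All 9 passed the filter on low counts. The 9 RNA libraries came from 4T1, an established line of mammary carcinoma cells derived from BALB/c mice. In the MRC+L group (3 libraries) cells were given MRC nanoparticles for 12 h and irradiated with a 660 nm laser for 3 min at 180 mW per square centimetre, a unit that another label prints as mV. The MRC group (3 libraries) had the particles for 12 h without light, and the PBS group (3 libraries) had fresh DMEM medium for 12 h and is also labelled untreated. The labels do not spell out MRC, name no group given light without particles, and do not say that the libraries of a group came from separate cultures. Each p-value is therefore set against the scatter among these libraries, and that scatter may be only technical.

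NRF2 is a basic leucine zipper factor of the cap'n'collar (CNC) family that switches on genes for glutathione synthesis, quinone reduction, haem breakdown and thioredoxin recycling. In unstressed cells KEAP1 holds NRF2 on the ubiquitin ligase CUL3, which marks it for the proteasome, and oxidants or electrophiles that modify KEAP1 let NRF2 accumulate. NRF2 binds the antioxidant response element as a pair with a small MAF protein, and BACH1 with the same partners occupies these sites as a repressor until haem removes it. Control of NRF2 acts largely on the protein, which these RNA counts do not measure.

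Library totals lay between 15019765 and 20044166 counts, and the level that a count of 0 still allows, set at 3 counts, was 0.150 to 0.200 CPM, the unit of counts scaled to a common library size (counting error only). The 9 genes had between 281 and 11245 counts in a library, far from that limit. PBS replicate 2 stood apart: in this library the 10% of genes with the shortest exons exceeded the 10% with the longest by 1.25 on the log2 scale, each gene taken relative to its own mean level. In the other 8 libraries this difference ran from -0.32 to 0.14. The biological coefficient of variation, the relative spread between replicates beyond counting noise, was 0.0575 within MRC+L, 0.0799 within MRC and 0.266 within PBS. Epithelial markers fixed for the check of the cell type gave a mixed picture. Krt8 and Krt18 had at least 2596 counts in every library and Krt7 at least 1164. By contrast, Epcam had 0 to 5 counts, Cldn7 0 to 6, Cldn4 3 to 17, Krt19 4 to 51 and Cdh1 33 to 99. Over the 8 epithelial markers the summed level was 560 to 572 CPM in MRC+L, 633 to 666 CPM in MRC and 1056 to 1878 CPM in PBS libraries. The 8 leukocyte markers summed to 18.6 to 20.1 CPM in MRC+L, 17.0 to 22.8 CPM in MRC and 7.16 to 12.1 CPM in PBS, nearly all of it Cd68, and 2 of them (Cd3e and Adgre1) had no count in any library. The 8 fibroblast and endothelial markers, mostly Pdgfra, summed to 70.9 to 81.0 CPM in MRC+L, 75.6 to 89.9 CPM in MRC and 33.1 to 62.9 CPM in PBS. The part of these shifts in the results below was not tested, and in bulk RNA fewer cells of a type cannot be told apart from less RNA per cell.

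Of the 9 genes 6 rose after MRC and 0 fell, and the same counts, 6 and 0, were found for MRC+L against PBS. The genes that rose were in both comparisons Nfe2l1, Bach1, Maff, Mafg, Mafk and Osgin1, whereas Nfe2l2, Keap1 and Cul3 did not pass the test. Calls are at a Benjamini-Hochberg adjusted p under 0.05 in the quasi-likelihood test of edgeR. Among all 13439 genes tested, 46.2% were called in MRC+L against PBS (21.8% higher and 24.5% lower) and 37.6% in MRC against PBS (17.8% higher and 19.8% lower). The libraries of 7 genes in MRC+L and 6 in MRC lay wholly above PBS, and those of 0 and 1 lay wholly below. Of all genes, 28.2% lay wholly above and 28.1% wholly below in MRC+L, and 24.1% above and 24.2% below in MRC. The median log2 fold change of the 9 genes was 0.71 in MRC and 0.74 in MRC+L against PBS, and that of all genes was -0.03 in both. Both comparisons share the PBS libraries, so they are not independent of each other. Levels below are CPM after scaling with TMM factors (trimmed mean of M values), with the mean ± SD over 3 libraries and fold changes with their standard error (SE).

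**Figure D1:**
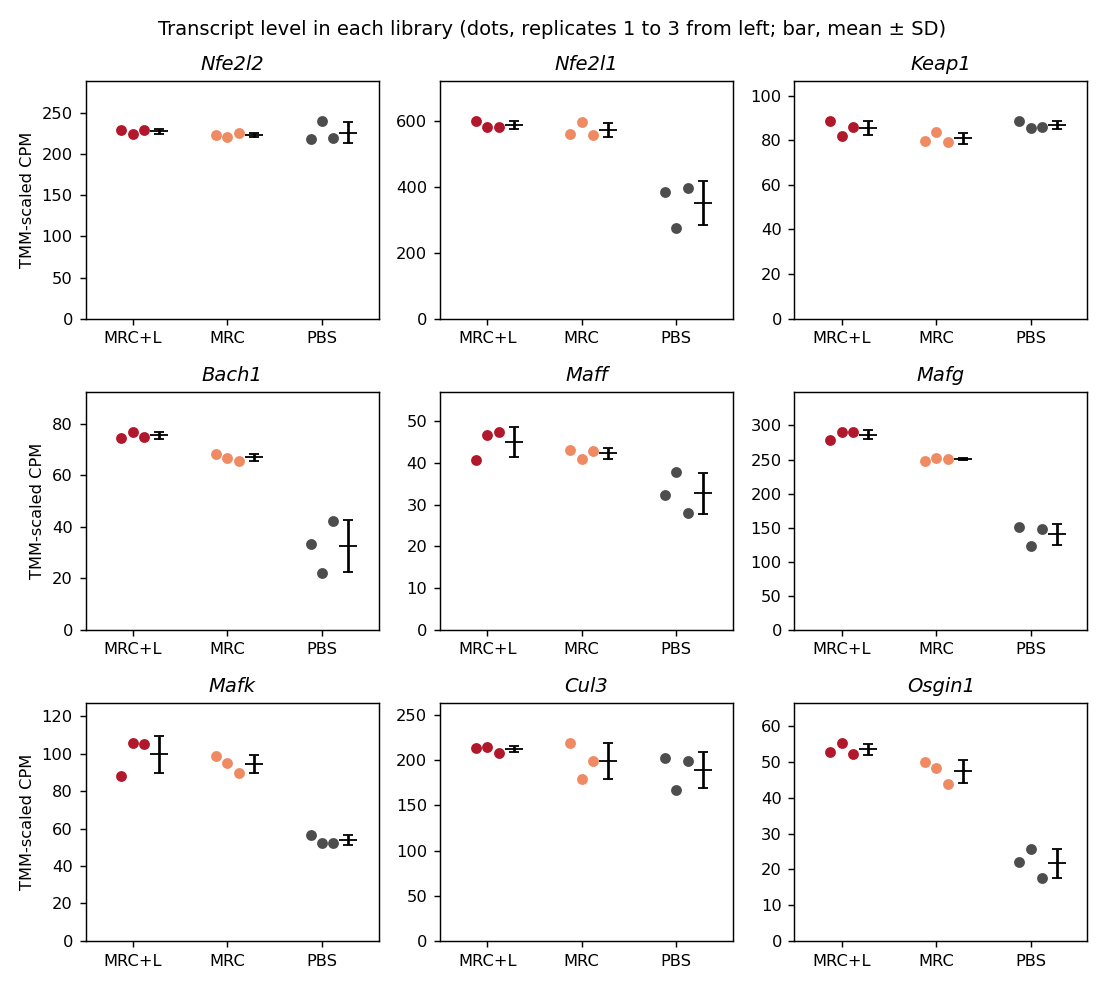
TMM-scaled CPM (y axis, from 0) of the 9 genes in each library, with the groups MRC+L, MRC and PBS on the x axis. Dots are libraries and bars are the mean ± SD over 3 libraries; Nfe2l2 lies between 218.5 and 240.7 CPM in all 9, while the exposed libraries of Bach1, Mafg, Mafk, Nfe2l1, Maff and Osgin1 all lie above the PBS libraries.

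Nfe2l2 (ENSMUSG00000015839, GRCm39 chr2:75505857-75534985, minus strand), the gene of NRF2, showed the smallest difference of the 9 genes in both comparisons with PBS. Its level was 229.5, 224.4 and 229.1 CPM in the MRC+L libraries, 222.9, 221.1 and 225.1 CPM in the MRC libraries, and 218.5, 240.7 and 219.1 CPM in the PBS libraries. The groups overlapped, and PBS replicate 2 was the highest of all 9 libraries. The log2 fold change was 0.01 ± 0.09 (SE) in MRC+L against PBS (adjusted p = 0.938) and -0.02 ± 0.09 in MRC against PBS (adjusted p = 0.886). The 95% intervals ran from -0.19 to 0.21 and from -0.22 to 0.18, so a rise or fall of the transcript by more than 0.22 log2 units lay outside both. Leaving out 1 library moved these values to between -0.02 and 0.06 in MRC+L and between -0.05 and 0.02 in MRC.

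Keap1 (ENSMUSG00000003308, chr9:21141026-21150657, minus strand) encodes the sensor that presents NRF2 to the ligase. It had 88.4, 81.9 and 86.0 CPM in MRC+L, 79.8, 83.7 and 79.1 CPM in MRC, and 88.7, 85.3 and 86.0 CPM in PBS libraries. All 3 MRC libraries lay below all 3 PBS libraries, while MRC+L overlapped both groups. The difference was small and was not called: -0.10 ± 0.09 log2 units in MRC against PBS (adjusted p = 0.392) and -0.02 ± 0.09 in MRC+L against PBS (adjusted p = 0.865). It was called lower in MRC by limma's voom test with sample weights (-0.14, adjusted p = 0.0436) and was not called by edgeR without PBS replicate 2 (-0.12, adjusted p = 0.241). Exons of Keap1 share 510 bases with the antisense gene Gm16754, which had at most 161 counts in a library, and the counting named no strand, so reads there cannot be divided between the genes.

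Cul3 (ENSMUSG00000004364, chr1:80242640-80318197, minus strand) encodes the cullin scaffold of the ligase that ubiquitinates NRF2 and many other proteins. Its level was 214.1, 214.5 and 208.4 CPM in MRC+L, 219.3, 178.8 and 199.0 CPM in MRC, and 202.1, 166.7 and 199.4 CPM in PBS libraries. The MRC+L libraries lay above all PBS libraries by a narrow margin and the MRC libraries overlapped them. Neither difference was called, with 0.17 ± 0.12 in MRC+L against PBS (adjusted p = 0.26) and 0.07 ± 0.12 in MRC against PBS (adjusted p = 0.654). Without PBS replicate 2 these values were 0.08 and -0.02.

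Nfe2l1 (ENSMUSG00000038615, chr11:96708240-96720794, minus strand) encodes NRF1, a CNC factor that sits in the endoplasmic reticulum membrane and drives proteasome genes when the proteasome is impaired. It had the highest mean level of the 9 genes in each group, also per length, and rose 1.67-fold in MRC+L and 1.63-fold in MRC. The level was 601, 581 and 582 CPM in MRC+L libraries, 562, 597 and 558 CPM in MRC libraries, and 383, 274 and 396 CPM in PBS libraries. Exposed and PBS libraries did not overlap, and PBS replicate 2 was the lowest by a wide margin. The log2 fold change was 0.74 ± 0.14 in MRC+L against PBS (adjusted p = 0.00181) and 0.71 ± 0.14 in MRC against PBS (adjusted p = 0.00307). Without PBS replicate 2 the folds were 1.51 and 1.46, and both calls held.

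Bach1 (ENSMUSG00000025612, chr16:87495833-87530234, plus strand), the gene of the repressor that competes with NRF2 for small MAF partners, rose 2.31-fold in MRC+L and 2.05-fold in MRC. Its libraries held 74.5, 77.0 and 75.1 CPM in MRC+L, 68.5, 66.9 and 65.8 CPM in MRC, and 33.5, 22.2 and 42.4 CPM in PBS. The 3 groups did not overlap, with every MRC+L library above every MRC library and both above PBS. Against PBS the log2 fold change was 1.21 ± 0.19 in MRC+L (adjusted p = 0.000637) and 1.04 ± 0.19 in MRC (adjusted p = 0.00194). Relative to the mean, the spread among PBS libraries was the widest for this gene, whose exons are the longest of the 9 at 6179 bases. Without PBS replicate 2 the folds were 1.99 and 1.76, and with the length trend of each library removed they were 2.23 and 2.01, all called.

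The small MAF proteins have a DNA-binding zipper but no activation domain, and they act as partners of NRF2, NRF1 and BACH1. All of their genes rose. Mafg (ENSMUSG00000051510, chr11:120515943-120524426, minus strand) had 279, 291 and 290 CPM in MRC+L, 248, 252 and 251 CPM in MRC, and 150, 123 and 148 CPM in PBS libraries, so no group overlapped another. It rose 2.04-fold in MRC+L (log2 fold change 1.03 ± 0.10, adjusted p = 4.35e-05) and 1.79-fold in MRC (0.84 ± 0.10, adjusted p = 0.000208). Its exons share 124 bases with Sirt7 on the same strand, where the highest count of Sirt7 was 444.

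Mafk (ENSMUSG00000018143, chr5:139777268-139788408, plus strand) had 88.0, 105.8 and 105.1 CPM in MRC+L, 99.0, 95.1 and 89.6 CPM in MRC, and 56.7, 52.2 and 52.1 CPM in PBS libraries. The exposed groups overlapped each other and lay wholly above PBS. Mafk rose 1.86-fold in MRC+L (log2 fold change 0.89 ± 0.11, adjusted p = 0.000116) and 1.76-fold in MRC (0.82 ± 0.11, adjusted p = 0.000261). PBS replicate 2 was close to PBS replicate 3 here, and without it the folds were 1.83 and 1.73. An overlap of 169 exon bases with Tmem184a on the opposite strand involves a gene with at most 19 counts.

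Maff (ENSMUSG00000042622, chr15:79230821-79243276, plus strand), the small MAF gene best known for its induction by stress, had the smallest fold of the partners. Its level was 40.8, 46.7 and 47.5 CPM in MRC+L, 43.3, 40.9 and 43.0 CPM in MRC, and 32.2, 37.9 and 27.9 CPM in PBS libraries. Exposed libraries again lay above PBS, but the gap to PBS replicate 2 was small. The rise was 1.38-fold in MRC+L (log2 fold change 0.46 ± 0.13, adjusted p = 0.0143) and 1.30-fold in MRC (0.37 ± 0.13, adjusted p = 0.0417). The call in MRC was lost without PBS replicate 1, PBS replicate 3 or any 1 of the 6 exposed libraries (adjusted p = 0.0531 to 0.116) and held without PBS replicate 2 (1.40-fold, adjusted p = 0.000514). In MRC+L it was lost without MRC+L replicate 2 (adjusted p = 0.0532) or MRC+L replicate 3 (0.0598).

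Osgin1 (ENSMUSG00000074063, chr8:120160863-120172995, plus strand) encodes an oxidative stress-induced growth inhibitor and is known as an NRF2 target. It had the largest fold of the 9 genes, with 52.9, 55.4 and 52.4 CPM in MRC+L, 50.02, 48.4 and 43.8 CPM in MRC, and 22.0, 25.7 and 17.5 CPM in PBS libraries. Again the 3 groups did not overlap, and MRC+L was the highest. The fold was 2.46 in MRC+L (log2 fold change 1.30 ± 0.14, adjusted p = 6.32e-05) and 2.18 in MRC (1.12 ± 0.14, adjusted p = 0.000206). Unlike Nfe2l1 and Bach1, this gene was highest in replicate 2 among the PBS libraries, and without that library the folds were 2.70 and 2.38.

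**Figure D2:**
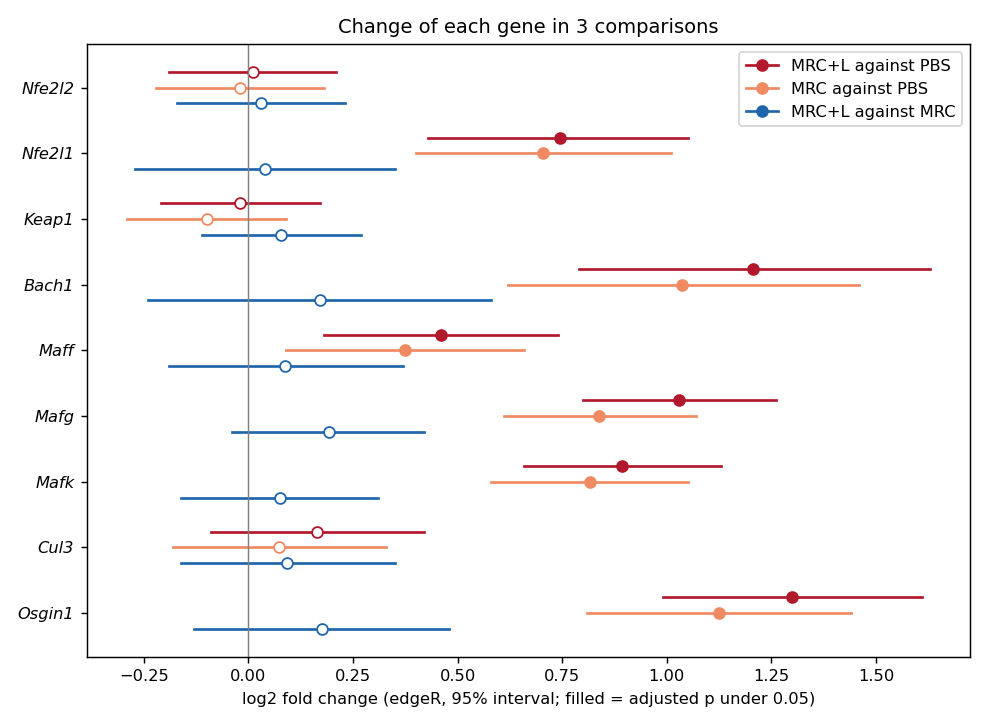
Log2 fold change (x axis) of each gene (y axis) in MRC+L against PBS, MRC against PBS and MRC+L against MRC, with 95% intervals from edgeR; filled dots have an adjusted p under 0.05. The 6 genes that rose have filled dots for both comparisons with PBS, and every interval for MRC+L against MRC crosses 0.

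The comparison of MRC+L with MRC asks what the light added in cells that held the particles. No gene of the 9 was called, although all 9 had a positive log2 fold change, between 0.03 for Nfe2l2 and 0.19 for Mafg. Over all 9 libraries edgeR called 0 of 13439 genes (0%), with 573 at an unadjusted p under 0.05, none of them among the 9. Bach1, Mafg and Osgin1 did not overlap between the groups, with all MRC+L libraries above all MRC libraries, a separation that 11.8% of tested genes showed in the higher direction and 12.6% in the lower. Their values were 0.17 ± 0.19 for Bach1 (95% interval -0.24 to 0.58), 0.19 ± 0.10 for Mafg (-0.04 to 0.42) and 0.18 ± 0.14 for Osgin1 (-0.13 to 0.48).

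The spread in that fit includes the PBS libraries. Fitted to the 6 libraries of MRC+L and MRC alone, edgeR called 654 of 12955 genes (5.05%), 406 higher (3.13%) and 248 lower (1.91%), and still none of the 9. Bach1, Mafg and Osgin1 were then the members with an unadjusted p under 0.05, a level that 2715 of all 12955 genes (21%) reached. Mafg came nearest to a call (0.20 ± 0.06, adjusted p = 0.0576), followed by Bach1 (0.18 ± 0.07, adjusted p = 0.134) and Osgin1 (0.18 ± 0.08, adjusted p = 0.18). DESeq2 called 14 genes and limma's voom test with sample weights called 262, none of them among the 9. Nfe2l2 differed by 0.03 ± 0.06 (adjusted p = 0.799) and Keap1 by 0.08 ± 0.07 (adjusted p = 0.504) in the fit to 6 libraries.

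To compare genes with each other, CPM were divided by the length of their exons in kilobases. On this scale Nfe2l1 led in each group, with 108 ± 2.11 CPM per kb in MRC+L, 105 ± 3.95 in MRC and 64.5 ± 12.3 in PBS. Nfe2l2 came second, with 60.0 ± 0.75, 58.8 ± 0.53 and 59.6 ± 3.32 CPM per kb in the same order of groups. In both exposed groups every Nfe2l1 value exceeded every Nfe2l2 value. The libraries of these genes overlapped in PBS only through replicate 2, with 50.4 CPM per kb for Nfe2l1 and 63.4 for Nfe2l2. In PBS replicates 1 and 3 Nfe2l1 had 70.4 and 72.8 CPM per kb, above every Nfe2l2 value of PBS. Bach1 was the lowest in each group, with 12.2 ± 0.21 CPM per kb in MRC+L, 10.9 ± 0.22 in MRC and 5.30 ± 1.64 in PBS, although its PBS libraries overlapped those of Osgin1.

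Between these ends the order differed by group. Mafg lay above Cul3 in MRC+L (51.0 ± 1.17 against 43.6 ± 0.70 CPM per kb), overlapped it in MRC (44.6 ± 0.36 and 40.8 ± 4.15), and lay below it in PBS (24.99 ± 2.69 against 38.9 ± 4.04). Keap1, at 18.2 ± 0.70 in MRC+L, 17.2 ± 0.53 in MRC and 18.5 ± 0.39 in PBS, was passed by Mafk (25.5 ± 2.58 in MRC+L, 24.2 ± 1.21 in MRC and 13.8 ± 0.68 in PBS). Osgin1 stood at 20.02 ± 0.60, 17.7 ± 1.21 and 8.13 ± 1.54 CPM per kb in MRC+L, MRC and PBS, above Keap1 without overlap in MRC+L, overlapping it in MRC and below it in PBS. Maff overlapped Keap1 in MRC+L, Osgin1 in MRC and Mafk in PBS. Exon lengths are those of all annotated exons together, so a gene with rarely used exons is placed too low.

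**Figure D3:**
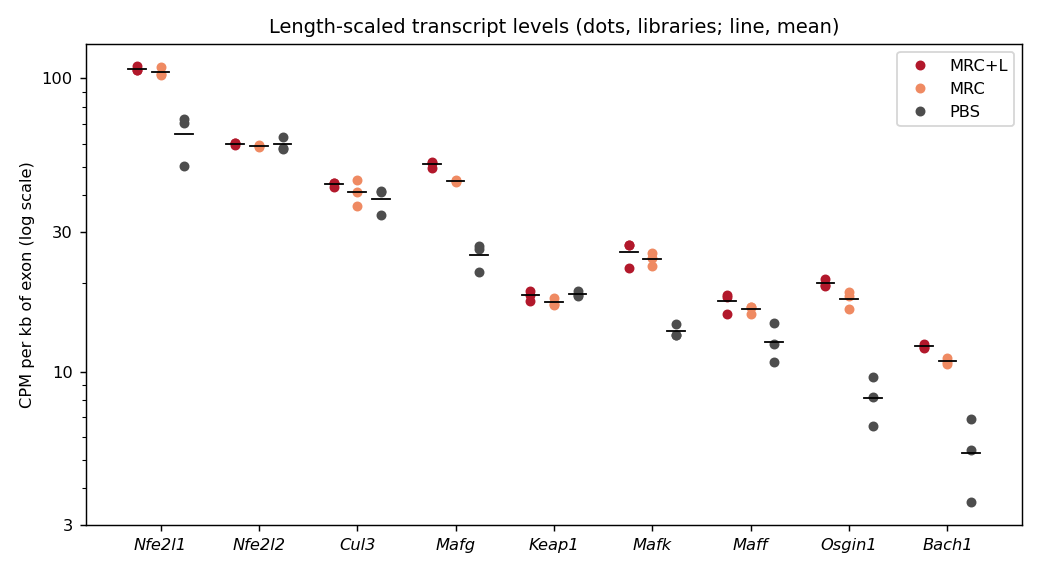
CPM per kb of exon (y axis, log scale) of the 9 genes (x axis, ordered by their PBS mean) in MRC+L, MRC and PBS. Dots are libraries and lines are means; Nfe2l1 is at the top and Bach1 at the bottom in each group, and Mafg, Mafk and Osgin1 change places with Cul3 and Keap1 between groups.

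Ratios within a library do not depend on library scaling. The ratio of Nfe2l2 to Keap1, activator to inhibitor, was 3.21, 3.39 and 3.29 in MRC+L, 3.45, 3.26 and 3.52 in MRC, and 3.04, 3.49 and 3.15 in PBS libraries, so all groups overlapped (per-length scale here and below). The ratio of Nfe2l2 to Bach1, activator to competing repressor, was 5.01, 4.75 and 4.97 in MRC+L, 5.30, 5.38 and 5.57 in MRC, and 10.6, 17.6 and 8.40 in PBS. Here the 3 groups were separate, with MRC+L below MRC and both below PBS, and the PBS value was highest in replicate 2. The difference was -7.31 in MRC+L against PBS and -6.80 in MRC against PBS, and in both the exact two-sided permutation test gave p = 0.1, the smallest that 3 against 3 libraries allow (p = 0.171 adjusted over 12 tests). Without PBS replicate 2 the differences were -4.61 and -4.10. None of the 12 tests could reach 0.05.

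The small MAF transcripts together summed to 93.9 ± 5.15 CPM per kb in MRC+L, 85.2 ± 1.03 in MRC and 51.4 ± 2.08 in PBS. Maff made up 17.9%, 18.6% and 18.9% of this pool in MRC+L, 18.5% to 19.7% in MRC, and 23.1%, 29.3% and 21.4% in PBS libraries. Its share was lower in every exposed library than in every PBS library (exact permutation p = 0.1 in each comparison with PBS), and the folds of Mafg and Mafk were larger than that of Maff. The difference in share was -6.13 points in MRC+L and -5.43 points in MRC against PBS, or -3.78 and -3.07 points without PBS replicate 2. Nfe2l2 transcripts were 35.4% to 36.1% of the Nfe2l1 and Nfe2l2 transcripts in MRC+L, 34.7% to 36.7% in MRC and 44.2% to 55.7% in PBS, again with no overlap of exposed with PBS libraries (exact permutation p = 0.1 each). The highest PBS share was that of replicate 2. The difference in this share was -12.6 points in MRC+L and -12.4 points in MRC against PBS, or -8.91 and -8.74 points without PBS replicate 2. MRC+L and MRC overlapped in both shares.

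**Figure D4:**
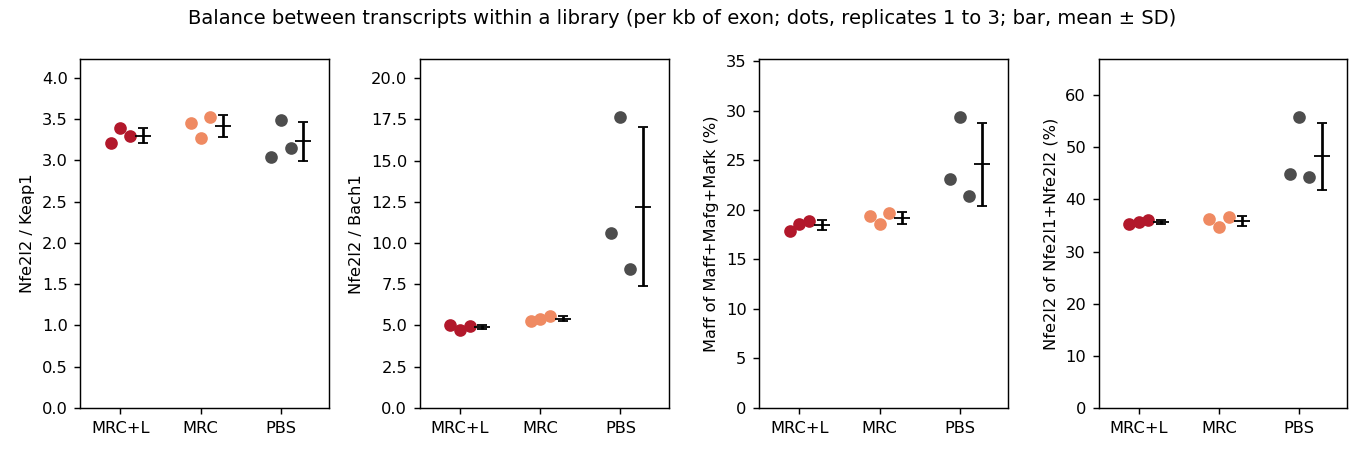
Ratios and shares of transcripts within each library (y axes, from 0, per kb of exon) in MRC+L, MRC and PBS, with dots for libraries and bars for the mean ± SD over 3 libraries. The Nfe2l2 to Keap1 ratio lies between 3.04 and 3.52 in all groups, whereas the Nfe2l2 to Bach1 ratio, the Maff share and the Nfe2l2 share are lower in all exposed libraries than in PBS.

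Promoters are shown because several of these genes moved together, and because NRF2 and AP-1 factors are known to bind related motifs. RefSeq promoters of GRCm38.p6, each from 250 bases before to 50 bases after a gene start, were found for all 9 genes, in 15 windows. They were searched on both strands for TGACNNNGC, the core of the antioxidant response element, and for TGACTCA, the AP-1 site, which can overlap the former. The first motif was in 1 window each of Nfe2l2, Maff, Mafg and Mafk, or 4 of 9 genes, against 14% of the 27025 genes in the table (12.4% of 32851 windows). The second was in the Osgin1 window alone, or 1 of 9 genes against 5.95%. Such a match is a description of letters and not a site in use, and a window without one says nothing of the factor. Matches are in capitals in these windows, given 5′ to 3′ on the strand of the gene.
Nfe2l2 chr2:75704614-75704913, minus strand: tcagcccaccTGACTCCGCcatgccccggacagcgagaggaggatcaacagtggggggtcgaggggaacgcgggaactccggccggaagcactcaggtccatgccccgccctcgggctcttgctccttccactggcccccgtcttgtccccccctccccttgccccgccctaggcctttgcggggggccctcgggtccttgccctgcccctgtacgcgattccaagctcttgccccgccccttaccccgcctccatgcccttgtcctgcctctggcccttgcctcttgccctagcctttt
Maff chr15:79346371-79346670, plus strand: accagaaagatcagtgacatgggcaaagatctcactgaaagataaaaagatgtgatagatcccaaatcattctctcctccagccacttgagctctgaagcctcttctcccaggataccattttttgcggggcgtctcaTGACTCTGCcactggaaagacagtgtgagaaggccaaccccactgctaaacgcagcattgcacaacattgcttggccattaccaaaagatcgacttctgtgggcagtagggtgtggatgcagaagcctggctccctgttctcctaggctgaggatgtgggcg
Mafg chr11:120633498-120633797, minus strand: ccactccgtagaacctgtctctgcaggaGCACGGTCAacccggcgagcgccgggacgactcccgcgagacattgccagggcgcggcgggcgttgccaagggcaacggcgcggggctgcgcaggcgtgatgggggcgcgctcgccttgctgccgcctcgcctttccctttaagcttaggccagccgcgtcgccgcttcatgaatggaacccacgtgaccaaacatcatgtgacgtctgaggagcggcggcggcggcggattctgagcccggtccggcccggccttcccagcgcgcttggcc
Mafk chr5:139791286-139791585, plus strand: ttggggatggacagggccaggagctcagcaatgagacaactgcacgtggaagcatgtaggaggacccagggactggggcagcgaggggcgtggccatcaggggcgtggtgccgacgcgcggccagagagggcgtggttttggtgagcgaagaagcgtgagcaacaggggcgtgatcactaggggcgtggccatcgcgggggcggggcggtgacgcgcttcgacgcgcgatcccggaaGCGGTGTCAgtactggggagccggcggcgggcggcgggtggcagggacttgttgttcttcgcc
Osgin1 chr8:119436897-119437196, plus strand: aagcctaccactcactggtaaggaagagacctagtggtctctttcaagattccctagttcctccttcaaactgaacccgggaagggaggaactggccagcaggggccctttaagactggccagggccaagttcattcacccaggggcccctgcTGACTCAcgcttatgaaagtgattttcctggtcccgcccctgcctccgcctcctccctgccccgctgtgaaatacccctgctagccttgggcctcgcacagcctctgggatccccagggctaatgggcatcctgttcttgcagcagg
The outer edge of the match lay 240 bases before the gene start in Nfe2l2, 112 in Maff, 222 in Mafg, 13 in Mafk and 97 in Osgin1. In Mafg and Mafk it was on the opposite strand. Of the 4 genes with TGACNNNGC the 3 small MAF genes rose and Nfe2l2 did not pass the test, whereas Bach1 and Nfe2l1 rose with neither motif in their windows.

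Other genes of the pathway were counted from 8 lists, some of which share genes. Sqstm1 is counted both as an NRF2 target and as a gene for a protein that binds KEAP1. Cul1 and Rbx1 are counted both among other routes that degrade or release NRF2 and NRF1 and among other cullins and neddylation. In MRC+L against MRC none of the genes in these lists was called, where 0 of all 13439 genes were. The spread in that fit includes the PBS libraries, so it cannot decide whether light changed these genes. Their log2 fold changes there ran from -0.34 for Mafa to 0.60 for Hmox1, with 0.49 ± 0.11 for Jun (adjusted p = 0.806). Calls of these lists in the fit to the 6 exposed libraries are not given here. Without PBS replicate 2 the calls were 1 NRF2 target and 1 coactivator, both higher, where 89 of all 13747 genes were called. The counts below stand against shares over all genes of 21.8% higher and 24.5% lower in MRC+L, and 17.8% higher and 19.8% lower in MRC. Of 31 tested NRF2 targets 19 rose and 5 fell in MRC+L, and 18 rose and 6 fell in MRC (medians 1.03 and 0.85, against -0.03 for all genes in both). The 3 with the smallest adjusted p in MRC were Srxn1 (sulfiredoxin), Slc7a11 (cystine importer) and Gclm (glutathione synthesis), which in MRC+L stood 8.25-fold, 25.2-fold and 4.72-fold above PBS. Those that fell in both were Idh1, Ugdh, Gstm1, Aox1 and Cbr1, and Ephx1 fell in MRC. The number that fell in MRC+L was 3 without MRC+L replicate 2 or 3. Of 9 genes for proteins that bind KEAP1, 3 rose in each comparison with PBS (Sqstm1, Pgam5 and Sesn2) and 2 fell (Amer1 and Mcm3). The medians of this list were -0.25 in MRC+L and 0.0 in MRC. All genes gave 21.8% higher and 24.5% lower in MRC+L and 17.8% and 19.8% in MRC, so the number that fell lay near the share over all genes. Sqstm1 encodes p62, the autophagy receptor that captures KEAP1, and had 3807 ± 311 CPM in MRC+L, 3496 ± 211 CPM in MRC and 810 ± 195 CPM in PBS (4.70-fold and 4.32-fold, adjusted p = 8.2e-06 and 1.59e-05). Pgam5 rose 1.53-fold in MRC+L and 1.48-fold in MRC, and Mcm3 was 1.56-fold and 1.54-fold lower. The number that fell in MRC was 1 without PBS replicate 1, PBS replicate 3 or any 1 MRC library, and in MRC+L it was 4 without PBS replicate 2.

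Among 17 genes of other routes that degrade or release NRF2 and NRF1, 7 rose and 5 fell in MRC+L, and 6 rose and 2 fell in MRC (medians 0.27 and 0.21). Over all genes 21.8% rose and 24.5% fell in MRC+L, and 17.8% rose and 19.8% fell in MRC, and the number of this list that fell in MRC+L was near that share. Syvn1 and Sel1l, the ligase HRD1 and its adaptor of the endoplasmic reticulum, rose 2.35-fold and 2.77-fold in MRC+L and 2.02-fold and 2.41-fold in MRC. Nploc4, a cofactor of the p97 segregase that extracts membrane proteins, rose 1.47-fold in MRC+L and 1.54-fold in MRC. The number that fell depended on the libraries. In MRC+L it was 1 without MRC+L replicate 2, 2 without MRC+L replicate 1, and 3 without MRC+L replicate 3, PBS replicate 1 or any 1 MRC library. In MRC it was 0 when the MRC library left out was replicate 1 or 2, 1 when it was replicate 3 or when PBS replicate 1 was left out, and 4 without PBS replicate 2.

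Genes of other cullins and of neddylation mostly did not pass the test, with 1 higher and 2 lower in MRC+L and 0 higher and 1 lower in MRC of 16 tested (all genes: 21.8% higher and 24.5% lower in MRC+L, 17.8% and 19.8% in MRC). The one lower in both was Cul7 (1.43-fold and 1.41-fold lower), and the one higher in MRC+L was Cul1 (1.21-fold, adjusted p = 0.0418; in MRC adjusted p = 0.052). The number higher in MRC+L was 0 without PBS replicate 1 or any 1 of the 6 exposed libraries and 2 without PBS replicate 2, and in MRC it was 3 without PBS replicate 2. The number lower in MRC was 2 without PBS replicate 2 or 3. Nedd8, the other gene lower in MRC+L, had 55.0 ± 3.87 CPM in MRC+L and 95.2 ± 45.0 CPM in PBS, and the number lower was 1 without any 1 MRC+L library. Of 31 tested adaptor genes of CUL3 other than Keap1, 12 rose and 3 fell in MRC+L and 8 rose and 3 fell in MRC (medians 0.25 and 0.26), beside the same shares over all genes. Klhl21 rose 2.50-fold in MRC+L and 2.48-fold in MRC, Kbtbd8 3.57-fold and 2.66-fold, and Klhl2 1.46-fold and 1.47-fold. The number that rose in MRC was 15 without PBS replicate 3; the number that fell in MRC was 1 without the first PBS library or without the first or the third MRC library, and in MRC+L it was 5 without PBS replicate 2.

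Coactivators and nuclear partners of NRF2 gave 3 higher (Crebbp, Jun and Atf4) and 2 lower (Med16 and Rara) of 13 in MRC+L, and 2 higher and 2 lower in MRC (medians 0.24 and 0.13). These counts were near or below the shares over all genes, which were 21.8% higher and 24.5% lower in MRC+L and 17.8% and 19.8% in MRC. Jun, an AP-1 subunit, rose 2.68-fold in MRC+L and 1.90-fold in MRC, with 332 ± 36.6 CPM in MRC+L, 236 ± 2.28 CPM in MRC and 124 ± 9.63 CPM in PBS. Rara, the retinoic acid receptor alpha gene, was 1.81-fold lower in both, and Atf4 rose 1.74-fold in MRC+L and 1.79-fold in MRC. The number higher was 5 in MRC+L and 4 in MRC without PBS replicate 2, and 6 and 4 without PBS replicate 3. Of 8 relatives of the CNC, BACH, MAF and OSGIN genes only 3 passed the filter, and Nfe2 and Nfe2l3, for example, had at most 9 counts in a library. Osgin2 rose 1.70-fold in MRC+L and 1.81-fold in MRC. Mafa, a large MAF gene at 0.740 ± 0.08 CPM in MRC+L, 0.934 ± 0.09 CPM in MRC and 3.18 ± 1.37 CPM in PBS, fell. Bach2 rose 2.25-fold in MRC+L (adjusted p = 0.021) and had an adjusted p of 0.0877 in MRC. The number of relatives called higher was 1 in MRC+L without MRC+L replicate 1 or 3, and 2 in MRC without PBS replicate 3.

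The proteasome subunits, known targets of NRF1, did not move as one. Of 31 tested, 2 rose (Psmd1 and Psmd11) and 2 fell (Psma2 and Psmd13) in MRC+L, and the same 2 rose and 0 fell in MRC, with medians of -0.24 and -0.07 (all genes: 21.8% higher and 24.5% lower in MRC+L, 17.8% and 19.8% in MRC). Psmd11 had 266 ± 6.68 CPM in MRC+L, 269 ± 6.26 CPM in MRC and 159 ± 8.78 CPM in PBS (1.68-fold and 1.69-fold), and Psmd1 rose 1.35-fold and 1.34-fold. Psmd7 had 251 ± 11.1 CPM in MRC+L, 270 ± 11.4 CPM in MRC and 201 ± 53.8 CPM in PBS (adjusted p = 0.133 and 0.0633). These counts rest on the PBS libraries: without PBS replicate 2, 8 rose in MRC+L and 12 in MRC, whereas without PBS replicate 3, 15 fell in MRC+L and 9 in MRC. For MRC+L that number was 0 without MRC+L replicate 2 and 1 without PBS replicate 1, any 1 MRC library, MRC+L replicate 1 or MRC+L replicate 3.

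**Figure D5:**
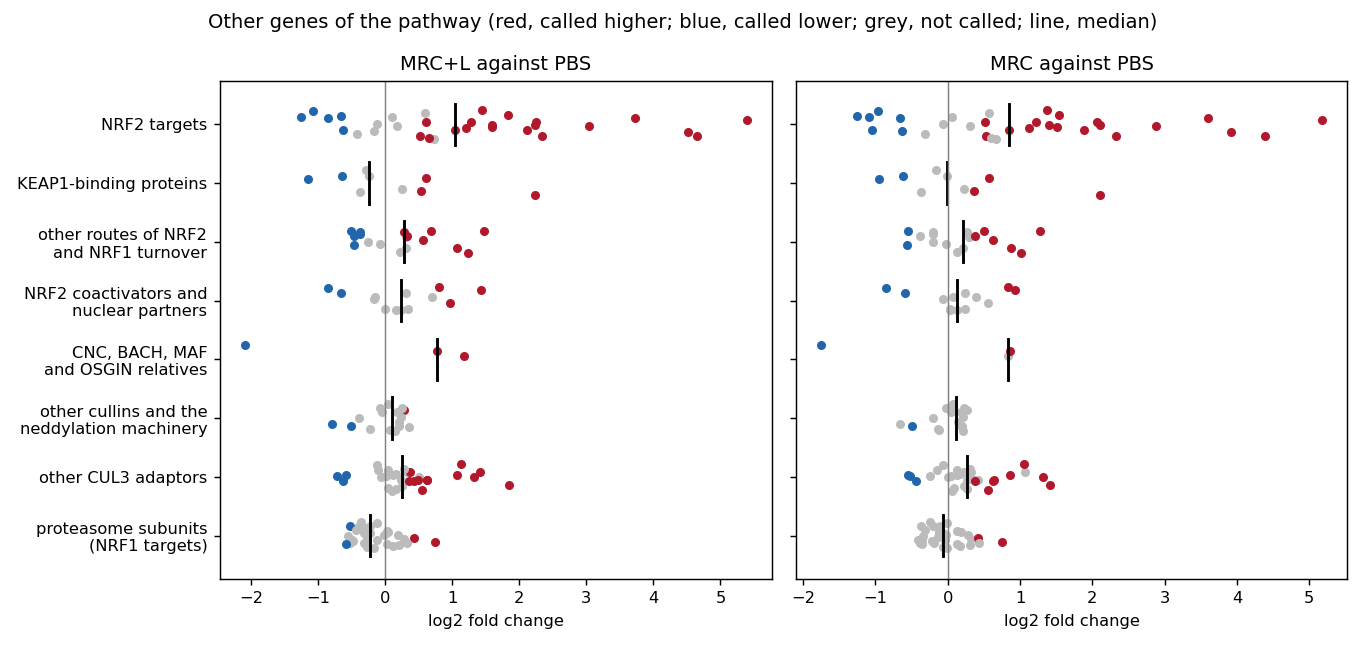
Log2 fold change (x axis) of the tested genes of 8 pathway lists (y axis; dots spread vertically to separate them) in MRC+L against PBS and MRC against PBS, with black lines at the medians. Called genes are red (higher) or blue (lower); NRF2 targets reach furthest to the right, and the median line of the proteasome subunits lies at -0.24 and -0.07.

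Genes whose levels ran most alike across the 9 libraries were found by Pearson's r of log2 CPM among 9619 protein-coding genes with a mean of at least 5 CPM. These values describe libraries that share groups and depth, and they carry no test. Closest to Nfe2l2 were Afp (r = 0.94) and Ostf1 (0.94, or 0.80 over 8 libraries without PBS replicate 2), and closest to Keap1 were Dmpk (0.96) and Ift172 (0.93). Cul3 ran with Vps35 (0.99) and Bmt2 (0.96). The genes that rose had closer companions, with r between 0.988 and 0.998: Tshz1 and Ccdc93 for Nfe2l1, Edem3 and Eea1 for Bach1, Pole4 for Maff, Impact and Uso1 for Mafg, Mettl13 and Tbrg4 for Mafk, and Itgb7 and Rrs1 for Osgin1. Without PBS replicate 2 the correlations of these pairs lay between 0.990 and 0.998.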

How the data were processed

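Per the file headers, the authors deposited raw counts of read pairs per gene, 1 table a library, from featureCounts 2.0.1 with no strand option and the annotation of Ensembl release 104 (GRCm39). The aligner is not given in the sources used here. Per the labels' protocols, Trizol served for RNA extraction and a TruSeq kit for the libraries. Symbols and biotypes came from GENCODE M21, matched by gene ID (52083 of 55416, 94.0%). Counts were kept by the edgeR filter (minimum count 10, minimum total 15; 13439 genes) and tested with the quasi-likelihood test of edgeR 4.0.16 in R 4.3.3, with TMM factors, 1 mean per group and all 9 libraries. SEs were derived from the F statistic. Alternatives used DESeq2 1.42.0, limma 3.58.1 (voom with sample weights), RLE factors, no filter, the 6 libraries of a comparison, a replicate block, removal of each library's length trend, and leaving out each library. The test was tried on simulated counts. Exact permutation tests used scipy 1.17.1, and plots matplotlib 3.10.9. Every pair of replicates differed by more than counting noise (chi-square per degree of freedom 3.83 to 157). Genes named are the 9 members, up to 3 genes per list with the smallest adjusted p in MRC against PBS, members that a count of calls turns on (named after their values were seen) and up to 2 most alike genes per member; a few genes that these rules name are not reported here. The members and lists were chosen with earlier results of these data known. Protein sequences were not used here.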

Additional observations from a re-analysis of the deposited data

How the results depend on the processing

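Among the 9 genes, directions and calls held for Nfe2l1, Bach1, Mafg, Mafk and Osgin1 in both comparisons with PBS under each alternative run, and none of the 9 was called for MRC+L against MRC. The call of Maff in MRC was also lost with no filter (adjusted p = 0.0591), with the 6 libraries alone (0.0893) and with the replicate block (0.072), and the number of members called lower in MRC was 1, Keap1, by voom with sample weights. Signs turned for values near 0, none of them called. For MRC, Nfe2l2 had 0.03 by voom, 0.008 with no filter, 0.035 with the length trend removed and 0.021 at the highest and -0.046 at the lowest with 1 library left out. Cul3 had -0.007 by voom and -0.019 to 0.144 with 1 library left out. For MRC+L against PBS these ranges were -0.018 to 0.056 for Nfe2l2 and -0.044 to 0.012 for Keap1. The ratio of Nfe2l2 to Keap1 differed by -0.0237 to 0.199 between MRC+L and PBS, and the share of Nfe2l2 by -0.753 to 0.233 points between MRC+L and MRC, with 1 library left out. Over all genes, voom called 4433 higher and 4418 lower in MRC and 4866 and 4990 in MRC+L against PBS (main counts 2394, 2656, 2926 and 3286). For MRC+L against MRC the main counts were 0 and 0. Higher and lower calls were 8 and 6 by DESeq2, 143 and 119 by voom, 7 and 8 with no filter, 3 and 0 with the length trend removed, and 406 and 248 with 6 libraries. With 6 libraries and the length trend removed, an alternative chosen after seeing the data, they were 208 and 279. With 1 library left out they ranged from 0 to 43 and from 0 to 46, highest without PBS replicate 2. The cause of these changes was not tested. Same-numbered libraries did not deviate together (correlations -0.185 to 0.0385), and differently numbered ones ran from -0.126 to 0.204. With 3 libraries per group these correlations cannot decide whether the numbers pair the samples. The replicate block gave 2059 higher and 2224 lower calls in MRC and 2630 and 2860 in MRC+L against PBS. The 9 genes had at least 281 counts in every library, and the effect of depth on their calls was not tested.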
